A study of Homo sapiens with 6 samples.

Results

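NCKAP1L, NCKAP1, CYFIP1, CYFIP2, WASF1, WASF2, ABI1, WAS, DOCK8 and MARCKS encode subunits of the WAVE complex and other regulators of the actin skeleton. They were taken as every probe set that the platform annotation assigns to 1 of these 10 genes alone, which gave 25 of 54613 probe sets and 9 of 10 genes. No probe set named WASF1 alone, so WASF1 was not analysed here. NCKAP1L, DOCK8 and MARCKS stood in earlier results of the same comparison between LEF1 siRNA and scrambled siRNA. Differences of all 10 genes in that comparison are therefore given as a description, without p-values. Counts of calls, of signs or of overlap among them, and their median difference, support no statement about the group.

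The samples were 6 cultures of BL2, an established human Burkitt lymphoma cell line, all electroporated with siRNA and grown in complete RPMI medium. Of these, 3 received a pool of 4 siRNAs against LEF1 and 3 received scrambled siRNA. Each of 3 labelled batches held 1 array of either group, and the replicates are biological according to the series' design text. The arrays read bulk RNA, in which a change in the share of cells and a change in RNA per cell cannot be told apart. Expression is given on a log2 scale per probe set, as deposited, so a difference of 1 is a doubling. BL2 is a single line, and the labels used here give no time after electroporation.

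The WAVE complex links small GTPases at the plasma membrane to new actin filaments. Its subunits are a CYFIP protein, a NAP1-type protein (NCKAP1, or NCKAP1L in blood cells), an ABI adaptor, a WAVE protein encoded by a WASF gene and the small protein BRK1. Active RAC binds CYFIP and frees the tail of the WAVE protein, which switches on the ARP2/3 complex and so the growth of branched actin. WAS encodes WASP, the founder of the same protein family, which responds to CDC42 in blood cells. DOCK8 is an exchange factor that activates CDC42 in lymphocytes, and MARCKS is a protein kinase C substrate that binds actin and membrane phospholipids. Inherited loss of NCKAP1L, WAS or DOCK8 causes human immune deficiency.

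RefSeq promoter windows in GRCh38.p14, each from 250 bases before to 50 bases after a gene start, were matched for 8 of the 10 genes, 14 windows in all. The 250 bases before the starts of DOCK8 and MARCKS are printed 5′ to 3′ with CG dinucleotides in capitals, because these genes had the widest differences among those with a window and DOCK8 has alternative starts with unlike sequence.
MARCKS, chr6:113857095-113857344, + strand: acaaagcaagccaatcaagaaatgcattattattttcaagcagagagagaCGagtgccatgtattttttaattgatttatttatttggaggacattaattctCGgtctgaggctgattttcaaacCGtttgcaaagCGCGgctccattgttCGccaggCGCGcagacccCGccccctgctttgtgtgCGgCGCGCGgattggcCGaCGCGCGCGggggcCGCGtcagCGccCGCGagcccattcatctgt
DOCK8 first start, chr9:214615-214864, + strand: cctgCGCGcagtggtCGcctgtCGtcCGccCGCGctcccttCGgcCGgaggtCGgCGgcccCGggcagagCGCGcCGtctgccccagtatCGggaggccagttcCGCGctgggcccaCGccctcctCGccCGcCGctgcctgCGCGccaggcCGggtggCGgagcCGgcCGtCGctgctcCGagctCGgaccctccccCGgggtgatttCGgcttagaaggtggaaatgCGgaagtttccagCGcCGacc
DOCK8 second start, chr9:272796-273045, + strand: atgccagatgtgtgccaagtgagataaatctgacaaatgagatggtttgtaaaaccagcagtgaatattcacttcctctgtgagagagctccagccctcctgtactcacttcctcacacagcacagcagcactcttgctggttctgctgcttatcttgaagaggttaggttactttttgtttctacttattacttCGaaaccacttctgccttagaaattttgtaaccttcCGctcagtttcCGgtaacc
The MARCKS window held 25 CG dinucleotides in its 300 bases. The DOCK8 windows held 42 at the first start and 7 at the second, against a median of 14 over 35116 windows. LEF1 protein binds DNA at the TCF/LEF core, searched here as CTTTG followed by 2 bases that are each A or T, on both strands. NCKAP1L and WASF2 had no matched window. None of the 14 windows of the other genes held any of the 4 spellings, and 13.8% of all windows did. That says only that these letters are not in these windows.

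The siRNA target fell. The brightest LEF1 probe set read 8.32 ± 0.30 after LEF1 siRNA and 11.04 ± 0.43 after scrambled siRNA (SD, n = 3 each), a difference of -2.71 (limma adjusted p = 0.0213 without block and 7.46e-11 with batch as block). B cell markers were bright, with a list mean of 11.50 to 11.57 over the LEF1 siRNA arrays and 11.51 to 11.71 over the scrambled siRNA arrays. Means were 7.23 to 7.31 against 7.35 to 7.37 for 8 T and NK cell markers, 6.59 to 6.74 against 6.69 to 6.74 for 5 myeloid markers, and 6.81 to 6.92 against 6.75 to 6.85 for 6 epithelial markers. The overall median level was 6.91, around which values hold mostly background. The defining T cell markers CD3D and CD3E read 7.10 and 6.94 after LEF1 siRNA and 7.09 and 6.91 after scrambled siRNA, while ZAP70 read 8.16 and 8.51. With batch as block ZAP70, NCAM1 and CD247 were lower by 0.35, 0.25 and 0.22 (limma adjusted p = 0.00669, 0.0188 and 0.0368), as was the B cell marker MME by 0.43 (0.000605). The NCAM1 and CD247 calls were lost without batch 1 and without batch 2, and that of CD247 with trend and robust eBayes. ELF3 was higher by 0.22 (0.0307), a call that was lost under each of the 4 other scalings tried. No myeloid marker passed, and ITGAM and CSF1R, the brightest of them, differed by 0.01 each. The part of these markers in the results below was not tested.

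NCKAP1L, the blood cell form of the NAP1 subunit, was higher after LEF1 siRNA at all 3 of its probe sets and in all 3 batches. The probe set 238668_at read 9.28, 9.16 and 9.22 after LEF1 siRNA in batches 1, 2 and 3, against 8.46, 8.31 and 8.48 after scrambled siRNA. Every LEF1 siRNA array lay above every scrambled siRNA array. The differences within batches were 0.82, 0.85 and 0.74, with a mean of 0.80 ± 0.06 (standard error with batch as block), or 1.74-fold. Here and below, ± on a difference is this limma standard error. It draws mostly on the spread of other probe sets and can be narrower than the batches of 1 probe set imply.

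The other NCKAP1L probe sets went the same way by less. The brightest, 209734_at, read 10.42, 10.41 and 10.45 after LEF1 siRNA, against 10.02, 10.14 and 10.23 after scrambled siRNA. The LEF1 siRNA arrays were nearly alike, and the spread lay in the scrambled siRNA arrays, so the batch differences of 0.40, 0.27 and 0.22 followed the scrambled siRNA levels. The dimmest, 217549_at, read 8.63, 8.83 and 8.73 after LEF1 siRNA, against 8.36, 8.43 and 8.50 after scrambled siRNA. Its batch differences were 0.28, 0.40 and 0.23. These probe sets thus agreed in direction and in not overlapping between groups, with mean differences of 0.30 (1.23-fold) and 0.30 (1.23-fold) beside 0.80. In each batch the difference at 238668_at exceeded that at both other probe sets. Where each probe set lies on the transcript was not analysed here.

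**Figure D1:**
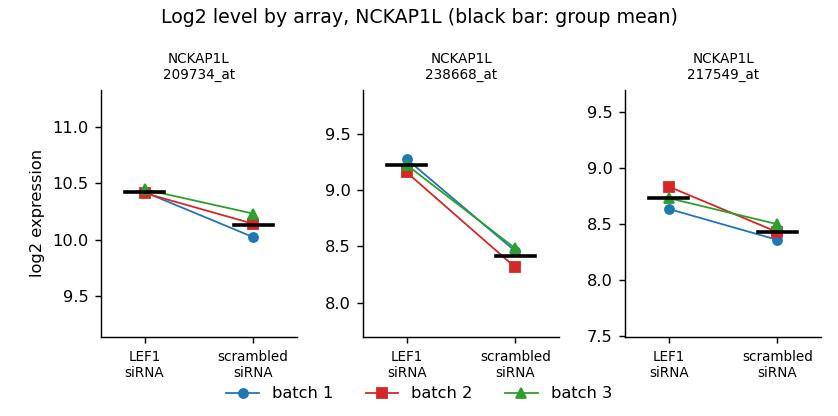
Log2 expression (vertical axis) of the 3 NCKAP1L probe sets in LEF1 siRNA and scrambled siRNA arrays, with lines joining the arrays of a batch and black bars at group means. All panels span the same height, and the slope is steepest at 238668_at, where the mean difference was 0.80.

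NCKAP1, the form of the subunit found in most tissues, was less even over batches. Its bright probe set 207738_s_at read 10.30, 10.20 and 9.83 after LEF1 siRNA, against 9.98, 9.50 and 9.76 after scrambled siRNA. The groups overlapped, since batch 3 after LEF1 siRNA lay below batch 1 after scrambled siRNA. Its batch differences of 0.33, 0.69 and 0.07 averaged 0.36 ± 0.09, with an SD over batches of 0.31. The other probe set, 217465_at, lay below the median of all probe sets, at 6.78 ± 0.15 and 6.72 ± 0.08 (SD, n = 3 each), and differed by 0.06.

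CYFIP1 and CYFIP2, the RAC-binding subunits, showed small differences or none of a steady sign. CYFIP1 read 7.23, 7.34 and 7.21 after LEF1 siRNA, against 6.99, 7.02 and 7.08 after scrambled siRNA. These groups did not overlap, and the difference of 0.23 ± 0.06 was measured close to the median of 6.91 of all probe sets, where log2 differences are compressed. CYFIP2 was bright at both probe sets. Its brighter one, 215785_s_at, averaged 12.03 ± 0.14 after LEF1 siRNA and 12.03 ± 0.08 after scrambled siRNA (SD, n = 3 each), and its batch differences ran from -0.08 to 0.06. The other, 220999_s_at, was higher in 3 batches, by 0.16, 0.31 and 0.10, and its groups did not overlap.

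WASF2, which encodes WAVE2, was the only one of the 9 measured genes with a mean difference below 0 at all of its probe sets. The probe set 224563_at read 8.23, 8.09 and 7.43 after LEF1 siRNA, against 8.30, 8.81 and 8.04 after scrambled siRNA. Batch 3 was lowest in either group, but from batch 1 to batch 2 LEF1 siRNA fell and scrambled siRNA rose. The groups overlapped, and the batch differences were -0.07, -0.72 and -0.61, with an SD over batches of 0.35. The brighter ones, 224562_at and 221725_at, had mean differences of -0.16 ± 0.07 and -0.21 ± 0.07, with SDs over batches of 0.18 and 0.22. Batch 1 differed least from 0 at 224562_at (0.00) and 224563_at, and batch 2 differed least at 221725_at (-0.04).

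ABI1, the adaptor subunit, was higher in all 3 batches at its bright probe sets. The probe set 209028_s_at read 10.28, 10.20 and 10.33 after LEF1 siRNA, against 9.88, 9.66 and 10.02 after scrambled siRNA. The groups did not overlap, and the batch differences were 0.40, 0.54 and 0.30. The brightest, 209027_s_at, differed by 0.26, 0.31 and 0.03 with overlapping groups. The third, 1559890_a_at, read between 5.83 and 6.08 on all 6 arrays, far below the median, and differed by -0.01. WAS gave opposite mean signs at its probe sets, 0.14 ± 0.06 at 38964_r_at and -0.07 ± 0.06 at the dimmer 205400_at. The first was higher in each batch, by 0.10, 0.31 and 0.01, and its groups did not overlap. The second had batch differences of 0.04, -0.17 and -0.08, with overlapping groups.

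The 4 DOCK8 probe sets were unlike each other. The brightest, 225502_at, read 10.17, 10.05 and 9.90 after LEF1 siRNA, against 9.65, 9.57 and 9.50 after scrambled siRNA. The groups did not overlap and batch 1 was highest in either, with batch differences of 0.52, 0.49 and 0.40. The probe set 232843_s_at read 9.54, 9.49 and 9.57 after LEF1 siRNA, against 9.31, 9.25 and 9.22 after scrambled siRNA, and again the groups did not overlap. The dimmer 239027_at averaged 7.79 ± 0.14 after LEF1 siRNA and 7.80 ± 0.05 after scrambled siRNA (SD, n = 3 each), and its batch differences had both signs. At 232842_at, at the median level of all probe sets, the difference was 0.11 ± 0.06.

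MARCKS had the largest mean difference of the 25 probe sets over all 6 arrays. The brightest, 201669_s_at, read 12.00, 11.38 and 11.64 after LEF1 siRNA, against 11.22, 10.15 and 10.98 after scrambled siRNA. Every LEF1 siRNA array was higher, though the spread within either group was wide and batch 2 was lowest in each. The batch differences were 0.79, 1.23 and 0.67, with a mean of 0.89 ± 0.09 or 1.86-fold and an SD over batches of 0.30. The mean was 0.58 without scrambled siRNA replicate 2, 0.73 without LEF1 siRNA replicate 1 and 0.73 without batch 2, each below that of NCKAP1L at 238668_at in the same arrays (0.75, 0.77 and 0.78).

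At 225897_at MARCKS read 10.72, 9.83 and 10.09 after LEF1 siRNA, against 9.90, 9.14 and 9.57 after scrambled siRNA. At 213002_at it read 9.10, 8.65 and 8.58 after LEF1 siRNA, against 8.55, 8.26 and 8.00 after scrambled siRNA. The groups overlapped at the first of these and not at the second, while all batch differences, from 0.39 to 0.83, were above 0. The probe set 201670_s_at differed by 0.76, 0.43 and 0.38. Only 201668_x_at had a batch of opposite sign, with differences of 0.63, -0.08 and 0.11. Names ending in _x_at mark probe sets whose probes may also bind other transcripts. Such binding was not analysed here at any of the 5 MARCKS probe sets. At all 5 MARCKS probe sets batch 1 was the highest array of either group, so levels followed the batch as well as the siRNA.

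**Figure D2:**
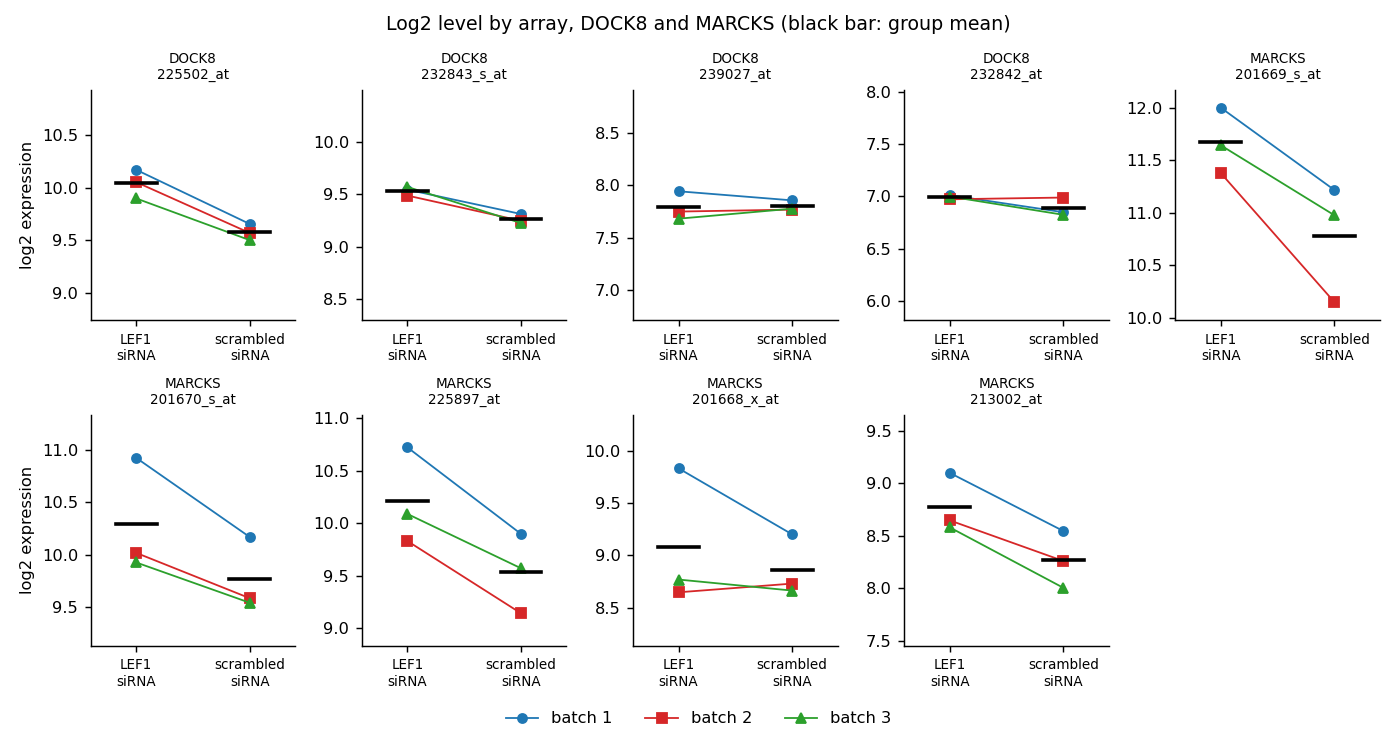
Log2 expression (vertical axis, same span in each panel) of the DOCK8 and MARCKS probe sets in LEF1 siRNA and scrambled siRNA arrays, with lines joining the arrays of a batch and black bars at group means. The lines fall side by side at 225502_at and at 4 MARCKS probe sets, and they are near level at 239027_at.

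Side by side, 15 of the 25 probe sets were higher after LEF1 siRNA in all 3 batches, as were 22.1% of all probe sets. Another 2, both of WASF2, were lower in all 3 batches, against 14.4% of all. At 11 the groups did not overlap with LEF1 siRNA higher (7.88% of all probe sets), and at 0 with LEF1 siRNA lower (4.59%). The median difference was 0.22 over the 25 and 0.01 over all 54613. The 25 include NCKAP1L, DOCK8 and MARCKS, known from earlier results of this comparison. The shares of all probe sets are also not matched for level, so these counts are a description only. Only NCKAP1L, with 3 probe sets, and CYFIP1, with 1, were higher in every batch at every probe set.

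In the limma fit without block, 1 of the 25 passed an adjusted p of 0.05, NCKAP1L at 238668_at, beside 0.0183% of all probe sets. That call was lost with equal medians, with scaling to poly-A spike-ins and when any 1 of the 6 arrays was left out, while its difference stayed at 0.68 to 0.83. With spike-ins the 1 member called without block was MARCKS at 201669_s_at. With batch as block 12 passed higher and 1 lower, against 4.58% and 1.51% of all probe sets. They were all 3 of NCKAP1L, 4 of MARCKS, 2 of DOCK8 and 1 each of NCKAP1, CYFIP1, ABI1 and, lower, WASF2. Of the 25, 23 lay above the median level, so the shares of all probe sets are not matched for level. Among the 27306 probe sets above the median, fitted alone, 2571 passed higher and 894 lower. Scaling the arrays to their poly-A spike-ins subtracts a constant from every difference, so that the median of all probe sets is -0.11 there, against 0.01 as deposited. On that scale, with batch as block, 7 passed higher and 3 lower, against 1.78% and 14.3% of all probe sets. Those were NCKAP1L at 238668_at, ABI1 at 209028_s_at, DOCK8 at 225502_at, 4 of MARCKS and all 3 of WASF2. Leaving out batch 2 ended the calls of NCKAP1L at 217549_at, NCKAP1, CYFIP1 and WASF2, and leaving out batch 1, or setting equal medians, also ended that of CYFIP1.

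**Figure D3:**
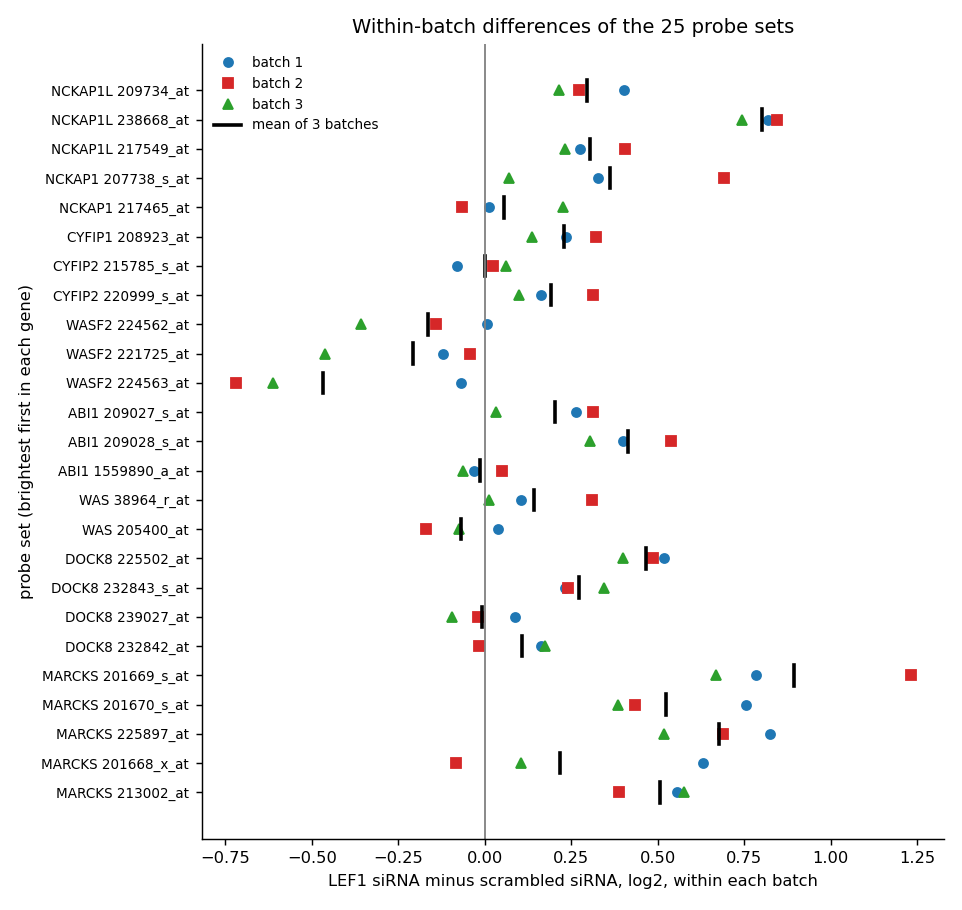
LEF1 siRNA minus scrambled siRNA on the log2 scale (horizontal axis) within each of 3 batches (coloured marks) and as their mean (black bar) for the 25 probe sets, grouped by gene. NCKAP1L, MARCKS apart from batch 2 of 201668_x_at, and parts of DOCK8 and ABI1 lie to the right of 0, and WASF2 lies to the left apart from 1 batch near 0.

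Other genes were set beside NCKAP1L at 238668_at, among probe sets that name 1 gene and lie above the median level. The 5 whose 3 batch differences lay nearest, by root mean square distance over 3 batches, were ZFP36L1, SATB1, ARL6IP5, HLA-DQA1 and ELK3. Their distances ran from 0.055 to 0.080 on the log2 scale. ZFP36L1 differed by 0.87, 0.86 and 0.66, on levels that spread from 10.15 to 11.62 within the LEF1 siRNA group. SATB1 differed by 0.83, 0.92 and 0.67, and ARL6IP5 by 0.78, 0.79 and 0.66. HLA-DQA1 differed by 0.73, 0.76 and 0.70, and ELK3 by 0.89, 0.79 and 0.64. Other probe sets of these genes, which were not picked for nearness to NCKAP1L, differed less. Those above the median differed by 0.60 for ZFP36L1, 0.49 for ARL6IP5, and 0.65 and 0.69 for HLA-DQA1. The dim ones differed by 0.02 and -0.05 for ZFP36L1, 0.33 and 0.10 for SATB1, and 0.03 for ELK3.

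Other genes of the actin network, listed by function, were read at the brightest probe set of each gene. Of 65 measured genes in 7 lists, 7 rose and 1 fell with batch as block. That is 10.8% and 1.54%, against 6.73% and 1.7% of all genes read that way. Most of the 65 lay above the median level of all probe sets, while all genes include dim ones. These shares are not matched for level and support no statement about the network. The median difference was 0.04 over the 65 genes and 0.02 over all genes. Without block limma called none of the 65, beside 0.0253% of all genes, while 10 had an unadjusted p below 0.05, all of them higher, where 7.6% of all genes were higher and 2.29% lower at that limit. WIPF1 alone passed without block after quantile normalization (limma adjusted p = 0.0457) and cyclic loess (0.0415).

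Among 7 partners of WAVE and WASP, WIPF1 rose, and the others did not pass. WIPF1 encodes WIP, the protein that holds and stabilises WASP. It read 10.82, 10.74 and 10.93 after LEF1 siRNA, against 10.35, 10.33 and 10.49 after scrambled siRNA. The groups did not overlap and the difference was 0.44 (limma adjusted p = 0.000511 with batch as block). Further WIPF1 probe sets differed by 0.05, 0.33 and 0.16, of which that at 0.33 passed. BRK1, the smallest WAVE subunit, differed by 0.15 (adjusted p = 0.222), ABI3 by 0.00 and WASF3 by -0.12.

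Of 9 measured genes of the ARP2/3 complex, which builds actin branches, 1 fell and 0 rose. ARPC1A, a subunit gene, read 10.72 ± 0.12 after LEF1 siRNA and 10.93 ± 0.17 after scrambled siRNA (SD, n = 3 each; difference -0.21, limma adjusted p = 0.0473 with batch as block). Of 10 small GTPase genes 1 rose, ARF6, which acts in membrane traffic and at the cell cortex. Its brightest probe set differed by 0.25 (limma adjusted p = 0.0182), and its other probe sets by 0.08, 0.15 and -0.22, none of which passed. RAC2, the RAC gene of blood cells, differed by 0.17, with 0.23, 0.13 and 0.15 by batch (adjusted p = 0.109). RAC1 and CDC42 differed by -0.01 and 0.04.

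Of 12 DOCK and ELMO genes other than DOCK8, 2 rose and 0 fell. DOCK10 and DOCK11, exchange factors of the DOCK family that act on CDC42, were those 2. DOCK10 read 8.53, 8.62 and 8.74 after LEF1 siRNA, against 8.13, 8.14 and 8.21 after scrambled siRNA. Its groups did not overlap and its difference was 0.47 (limma adjusted p = 0.00035 with batch as block). DOCK11 differed by 0.34 with overlapping groups (adjusted p = 0.00295). The second probe sets of both lay below the median and differed by 0.04 and -0.02. DOCK2, the main RAC exchange factor of lymphocytes, was higher by 0.30, 0.13 and 0.11 in the batches and did not pass (adjusted p = 0.109).

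Of 7 genes of the MARCKS and protein kinase C list 1 rose. PRKCB, the protein kinase C gene of B cell receptor signalling, read 11.08, 11.12 and 11.03 after LEF1 siRNA, against 10.72, 10.71 and 10.63 after scrambled siRNA. These groups did not overlap, and the difference was 0.39 (limma adjusted p = 0.00104 with batch as block). Of its 5 other probe sets 1 passed, at 0.31, and the rest differed by -0.03 to 0.13. MARCKSL1, the close relative of MARCKS, differed by 0.26, 0.04 and 0.04 in the batches (adjusted p = 0.412).

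Of 19 actin-binding and cortex genes of leukocytes 2 rose. CAPG, a filament capping protein gene, differed by 0.38 and the kinase gene STK4 by 0.25 (limma adjusted p = 0.00221 and 0.0184 with batch as block). CAPG groups did not overlap. The 6 other STK4 probe sets differed by -0.07 to 0.07 and did not pass. ACTB, the beta-actin gene, differed by -0.14 and did not pass (adjusted p = 0.272). The ARF6 and STK4 calls were lost with equal medians and under poly-A spike-in scaling, and with spike-ins 5 network genes rose and 10 fell, against 2.75% and 13.9% of all genes. ARPC1A and ARF6 did not pass without batch 2 or 3, nor STK4 without batch 1 or 2, and ARPC1A did not pass with trend and robust eBayes. WIPF1, DOCK10, DOCK11, PRKCB and CAPG kept their calls under all 4 other scalings and without each batch.

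**Figure D4:**
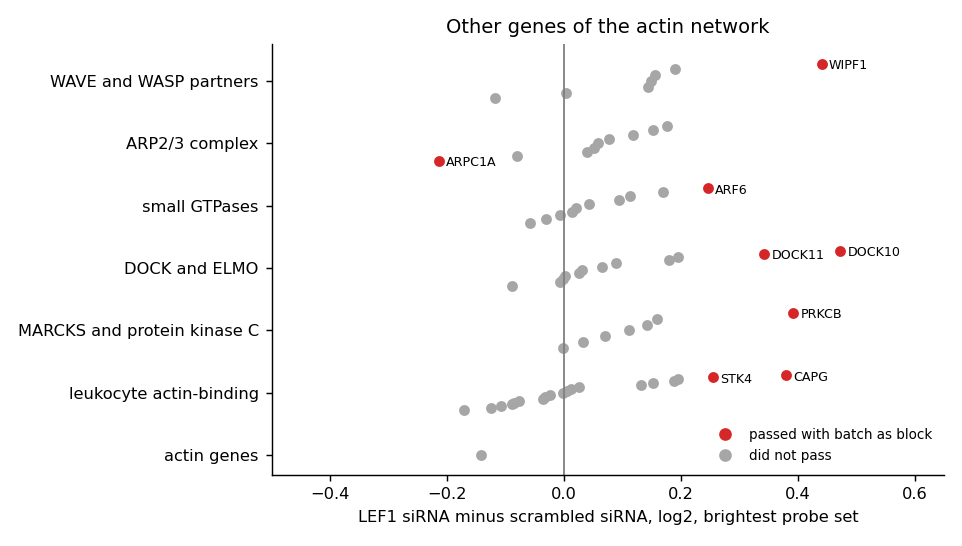
LEF1 siRNA minus scrambled siRNA on the log2 scale (horizontal axis) at the brightest probe set of each of 65 genes in 7 lists (rows), 1 point per gene, spread vertically within a list by size. Named red points passed with batch as block, 7 to the right of 0 and ARPC1A to the left, and grey points did not.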

How the data were processed

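The table the authors deposited holds log2 expression values, 1 for each of 54675 probe sets on every array. Their correction, normalization and summarisation were not given in the sources used here, and the log2 unit was read from the range of 5.45 to 15.0. Per the labels' protocols, cRNA was made with a kit that starts at the 3' end, so the arrays favour 3' sequence. Array medians ran from 6.89 to 6.96. The number of arrays limits the precision.

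After leaving out 62 control probe sets, limma 3.58.1 (lmFit and eBayes, R 4.3.3) was fitted to 54613 probe sets without block, and again with batch as block. Tests were two-sided, adjusted over all probe sets by the Benjamini-Hochberg method, with a threshold of 0.05. The labels give each batch 1 array of each group, which pairs them. Deviations from group means correlated across probe sets at 0.477, 0.493 and 0.621 within batches, and probe sets are not independent of each other. The fit without block had 4 residual and 4.07 prior degrees of freedom, and that with block 2 and 12.0, so the fit with block borrows most of its spread estimate from other probe sets. Both fits were also run on simulated data, whose outcome is not given here. A difference that did not pass was not shown to be absent.

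Symbols came from the platform annotation, checked through gene IDs against RefSeq GRCh38.p14, with 0 changed. In all, 41091 probe sets named 1 gene, 1801 several and 11721 none here. Network and marker genes were read at the brightest probe set, the highest mean over 6 arrays. Up to 4 passing genes per list were named, or the 2 brightest, besides every member probe set, LEF1 and the 5 nearest genes. Some other genes are named as values, chosen after their values were seen. The members, lists and tests were chosen with earlier results of these data known. Alternatives covered the block, 4 other scalings, dim probe sets, eBayes settings, the probe set per gene and leaving out each array or batch. Poly-A scaling used 24 spike-in probe sets. Figures used matplotlib 3.10.9 in Python 3.11.15.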

Additional observations from a re-analysis of the deposited data

How the results depend on the processing

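Depth is not a quantity of these arrays, and probe sets near the median level hold mostly background, which limits the smaller differences of CYFIP1 and of the dim probe sets of NCKAP1, ABI1 and DOCK8. Counts of calls depended most on the block. Over all probe sets 10 passed without block and 3328 with it, against 1 and 13 of the 25 member probe sets and 0 and 8 of the 65 network genes. Without block, 23 of all probe sets passed after quantile normalization and 23 after cyclic loess, with 1 network gene each, and 6 with trend and robust eBayes. With equal medians 0 member probe sets passed. With batch as block, quantile normalization gave 3315 of all, 13 member and 9 network calls, equal medians 2606, 12 and 6, and cyclic loess 3240, 13 and 8. Scaling to poly-A spike-ins gave 8797, 10 and 15, and moved the share of higher calls over all probe sets to 11.0%, against 75.2% on the deposited scale, 56.2% after quantile normalization, 63.9% with equal medians and 60.1% after cyclic loess. Only probe sets above the median, 27306 in all, gave 3465, 13 and 8, and trend and robust eBayes 2938, 13 and 7. The most variable probe set per gene gave 12 network calls with batch as block. That choice used the SD over all 6 arrays, which includes the difference between groups, so it favours calls. The share over all genes chosen that way is not given here.

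Leaving out 1 array without block gave 0 to 8 calls over all probe sets, and 0 member and 0 network calls for each of the 6 arrays. The NCKAP1L difference at 238668_at stayed at 0.75 to 0.83 in these fits of 5 arrays. LEF1 then differed by -2.94 to -2.51 and missed the threshold without LEF1 siRNA replicate 1 or 2 or scrambled siRNA replicate 1 or 3 (limma adjusted p from 0.0771 to 0.241). Leaving out a whole batch, with batch as block, gave 3880, 1407 and 3626 calls over all probe sets without batches 1, 2 and 3, with 14, 9 and 16 member calls and 11, 5 and 8 network calls. No member probe set called in either fit changed its sign under any of these alternatives. Each of them had the same sign in every batch, so leaving out a batch could not change it. All alternatives also reuse the same arrays.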
